A study of Ovis aries with 16 samples.

Results

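The 9 genes described here handle vitamin A: RBP4, LRAT, BCO1, RDH10, RDH11, RDH16, DHRS3, RARA and RARB. They were taken by symbol from a table of 28524 genes, in which 8 of the 9 had a row, and RDH16 was not analysed here. The set was named by function but selected on the measured RDH11 values, which were lower in the livers of sheep exposed to bisphenol A before birth and not in their muscle. That pattern is therefore a description below and is not tested. The study asked how prenatal exposure to bisphenol A (BPA), a plasticizer with oestrogen-like activity, alters gene expression in the liver and skeletal muscle of female offspring. BPA animals were daughters of Suffolk ewes injected under the skin with 0.5 mg/kg BPA in corn oil every day, gestation days 30 to 90. Control animals were daughters of ewes given corn oil alone on the same schedule. All were about 21 months old, had fasted for 48 hours and were in the late follicular phase of a cycle synchronized with prostaglandin. Each of the 4 BPA and 4 control animals gave 1 liver library (tip of the left lobe) and 1 library of the vastus lateralis, a thigh muscle, so 16 libraries came from 8 sheep. The labels say nothing on sire or litter.

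Vitamin A reaches the liver as retinyl esters and carotenoids. Hepatocytes release retinol bound to retinol-binding protein, and hepatic stellate cells hold most of the body's retinyl ester in lipid droplets. In target tissues retinol is oxidized to retinaldehyde, which is either reduced back or oxidized further to retinoic acid. Retinoic acid binds the nuclear receptors RARA, RARB and RARG, which pair with RXR receptors on DNA.

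Values are normalized read counts, that is reads divided by a size factor for each library, and are given as mean ± SD (n = 4 per group unless stated). They can be compared between libraries for a gene but not between genes. BPA livers held 4.66 to 17.92 M reads and control livers 4.39 to 19.28 M, against 15.15 to 26.54 and 16.16 to 28.54 M in BPA and control muscle. Livers expressed hepatocyte markers and muscles expressed creatine kinase CKM (310128 to 411785, against 0 to 29.1 in liver), but single livers stood apart. In the control liver 902 albumin ALB was at 10447, against 677303 to 739640 in the other controls, while collagen COL1A1 was at 43399, against 1046 to 1956 in the same controls. Its median hepatocyte marker lay -2.94 log2 units from the mean of the 8 livers. The BPA livers 918, 977 and 984 had hepatocyte medians of -0.55 to -0.94 and cytosolic ribosomal protein medians of -1.55 to -2.06. The BPA liver 910 (1.35 and 1.25) lay with the controls 908, 924 and 928 (1.20 to 1.56 and 1.29 to 1.41). The livers with fewer than 15 M reads were 918, 977, 984 and 902, so depth, marker levels and treatment moved together in most livers.

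RDH11, which in humans encodes an enzyme of the endoplasmic reticulum that reduces retinaldehyde to retinol, was at 62.7, 41.6, 39.9 and 48.7 in the BPA livers 910, 918, 977 and 984. It was at 121, 104, 115 and 149 in the control livers 902, 908, 924 and 928. Every BPA liver lay below every control liver, 910 included, and 902 lay among the controls. In 910 the hepatocyte median fell within the range of the control livers. Its ribosomal median (1.25) lay above that of 902 (0.0037) and slightly below those of the other controls (1.29 to 1.41). Its stellate median (0.17) lay slightly below every control (0.21 to 0.49). So did its endothelial (-0.06, controls 0.19 to 0.56), macrophage (0.58, controls 0.69 to 1.48) and cholangiocyte medians (-0.05, controls 0.03 to 1.35), by varying margins. The group means were 48.2 ± 10.3 in BPA livers and 122 ± 19.2 in control livers, a log2 difference of -1.33 (SE 0.29). These values rest on 20 to 82 reads in BPA livers and 64 to 222 reads in control livers. Within the livers over 15 M reads the difference was -0.94 (1 BPA, 3 controls), and within those under it -1.46 (3 BPA, 1 control). Without 902 it was -1.33, without 910 it was -1.46, and without both it was -1.47. In bulk tissue fewer cells of a type and less RNA per cell cannot be told apart.

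Muscle showed another order for RDH11. BPA muscles 910, 918, 977 and 984 had 40.1, 52.2, 49.1 and 65.7, and control muscles 902, 908, 924 and 928 had 39.0, 43.0, 44.6 and 40.9. The groups overlapped through the BPA muscle 910, the other BPA muscles lying above all controls (51.8 ± 10.6 in BPA muscle and 41.9 ± 2.45 in control muscle, log2 difference 0.28, SE 0.18). The BPA difference in liver minus that in muscle was -1.61 on the log2 scale (SE 0.31). Within animals, RDH11 was higher in liver than in muscle in 1 of 4 BPA animals (mean log2 ratio of liver to muscle -0.10 ± 0.49) and in 4 of 4 controls (1.51 ± 0.26). Its mean in BPA livers (48.2) thus lay between those of BPA muscle (51.8) and control muscle (41.9).

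**Figure D1:**
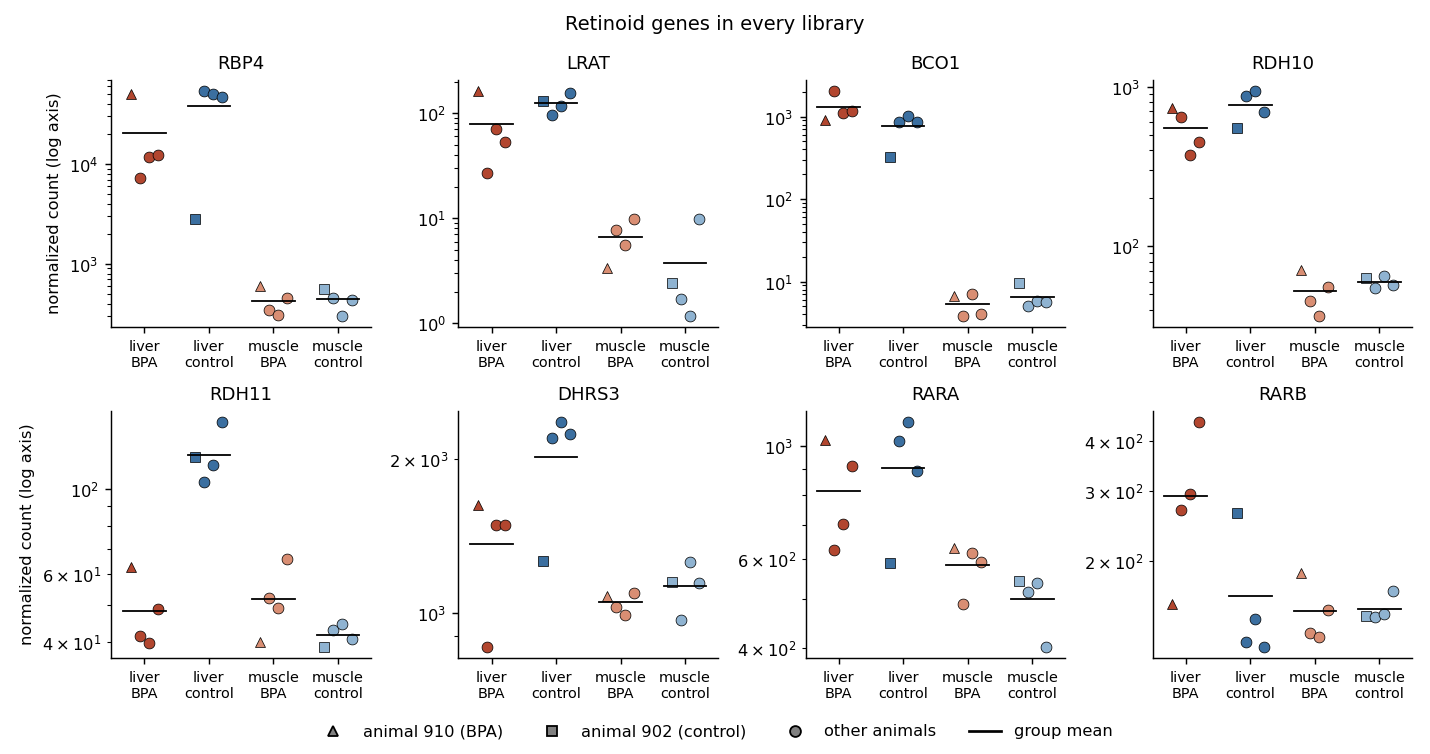
Normalized count (log axis) of the 8 genes with a row, by tissue and treatment; each point is 1 library, lines are group means, triangles mark animal 910 and squares animal 902. RDH11 is the gene whose 4 BPA livers (39.9 to 62.7) all lie below the 4 control livers (104 to 149), while RBP4 in BPA livers splits between 910 (50013) and the others (7266 to 12342).

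The genes most like RDH11 over the 8 livers included PECAM1 and LYVE1, both on the list of endothelial markers. Among 12972 named genes, the 5 highest Pearson correlations on the log2 scale included ADGRF5 (r = 0.98), LYVE1 (0.98), PECAM1 (0.97) and NXT1 (0.97). PECAM1, an adhesion molecule of endothelium, was at 413 ± 70.0 in BPA livers and 742 ± 74.3 in control livers. LYVE1, a hyaluronan receptor of lymphatic and sinusoidal endothelium, was at 88.8 ± 53.8 in BPA livers and 519 ± 159 in control livers. The median of the 10 endothelial markers with a row lay at -0.76 to -0.06 log2 units from the mean of the 8 livers in BPA livers and at 0.19 to 0.56 in controls. Their summed level was 8755 to 17329 in BPA livers and 12506 to 16038 in controls, and none was at 0. Of the endothelial markers, 9 of 10 had a lower estimate in BPA livers, beside 50.7% of all genes tested. So did 10 of 14 hepatocyte, 6 of 7 cholangiocyte and 2 of 3 adipocyte markers and 74 of 74 cytosolic ribosomal proteins. Among skeletal muscle markers 1 of 4 did. The median of the 10 macrophage markers with a row (10 of 10 with a lower estimate) lay at -2.12 to 0.58 in BPA livers and at 0.69 to 1.48 in controls. Their sums were 1095 to 6044 in BPA livers and 6555 to 9752 in controls, and none was at 0. The part of either cell type in the RDH11 values was not tested. The correlations use the same libraries as the contrast that chose RDH11 and are given as a description only. Over the 8 muscles the highest correlations were with CDK10 (r = 0.91), SYNGR3 (0.91), KLHL32 (0.90), PTCD1 (0.88) and EID3 (0.88). Of the other genes described here, LRAT was nearest to RDH11 over the livers (r = 0.73) and RARB farthest (-0.70).

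RBP4 encodes the plasma carrier of retinol. It was at 50013, 7266, 11765 and 12342 in the BPA livers 910, 918, 977 and 984, and at 2847, 54060, 50221 and 47217 in the control livers 902, 908, 924 and 928. The low libraries were thus those that were also low in hepatocyte markers, in both groups, and the groups overlapped. Relative to the hepatocyte median of the same library, RBP4 was at -0.18 ± 0.42 log2 units in BPA livers and -0.22 ± 0.37 in controls. Means were 20347 ± 19907 in BPA livers and 38586 ± 23990 in controls (log2 difference -0.70, SE 1.03, limma adjusted p = 0.719). Without both 902 and 910, the BPA livers left had under 15 M reads and the controls left had over it. The difference was then -2.31 (limma adjusted p = 0.000501), a setting in which 6594 of 15296 genes passed. With the depth class as a covariate the difference was 0.91 (limma adjusted p = 0.320), the opposite direction. TTR, which encodes transthyretin, the partner of RBP4 in plasma, was high in the same livers. The log2 ratio of RBP4 to TTR counts, whose size also depends on transcript length, was 2.10 ± 0.59 in BPA livers and 1.60 ± 0.94 in controls. By library it was 2.29 to 2.99 in the BPA livers 918, 977 and 984 and the control 902. In the BPA liver 910 and the controls 908, 924 and 928 it was 0.91 to 1.37.

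LRAT encodes the enzyme that makes the retinyl esters of stellate cells. BPA livers 910, 918, 977 and 984 had 163, 27.1, 71.1 and 52.9, and control livers 902, 908, 924 and 928 had 132, 96.3, 117 and 154. The BPA liver 910 was the highest of all 8, and the other BPA livers lay below every control. The log2 difference was -0.93 (SE 0.49, limma adjusted p = 0.323), and -1.38 without 910 (adjusted p = 0.0436), a setting in which 2595 of 15741 genes passed. It was -0.53 without 918 (adjusted p = 0.528) and -0.52 with the depth class as a covariate (adjusted p = 0.577). Within the livers over 15 M reads it was 0.44 (1 BPA, 3 controls), and within those under it -1.48 (3 BPA, 1 control). Against the median of the other stellate and fibroblast markers, LRAT was at -2.39 ± 0.77 in BPA livers and -2.11 ± 0.43 in controls. That list as a whole (18 genes, LRAT included) lay at -1.02 to 0.17 in BPA livers and 0.21 to 0.49 in controls. In this list 16 of 18 members had a lower estimate, beside 50.7% of all genes tested. Its summed level was 5728 to 14848 in BPA livers and 15151 to 114853 in controls, the highest being 902, and no member was at 0. In muscle LRAT was near the limit of detection, with 3 to 12 reads per library in BPA and 1 to 12 in controls, and was not tested there.

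BCO1 encodes the oxygenase that splits beta-carotene into retinaldehyde. BPA livers 910, 918, 977 and 984 had 898, 2040, 1093 and 1178, and control livers 902, 908, 924 and 928 had 324, 869, 1017 and 868. The BPA liver 918 was highest, the control liver 902 lowest, and 910 fell between the control livers 908 and 924. The log2 difference was 0.81 (SE 0.42, limma adjusted p = 0.319) and 0.44 without 902 (adjusted p = 0.353). Muscle held 5 or 6 reads of BCO1 per BPA library and 5 to 8 per control library, so it was not tested there.

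RDH10 oxidizes retinol to retinaldehyde and DHRS3 reduces retinaldehyde back, and in mice and humans the pair act as a complex. RDH10 was at 738, 641, 371 and 451 in the BPA livers 910, 918, 977 and 984, and at 554, 877, 940 and 694 in the control livers 902, 908, 924 and 928. DHRS3 was at 1629, 858, 1487 and 1488 in the same BPA livers and at 1261, 2197, 2368 and 2242 in the same controls. For both genes the ranges overlapped through the control 902, and for RDH10 also through 910, which lay above the control 928. The log2 differences were -0.50 for RDH10 (SE 0.32) and -0.56 for DHRS3 (SE 0.34), with limma adjusted p of 0.388 and 0.370. Without both 902 and 910 they were -0.80 and -0.87 (limma adjusted p = 0.0352 and 0.0248), where 6594 of 15296 genes passed. With the depth class as a covariate they were -0.20 and -0.25 (limma adjusted p = 0.704 and 0.635). The log2 ratio of DHRS3 to RDH10 was 1.32 ± 0.70 in BPA livers and 1.38 ± 0.22 in controls, with the BPA liver 918 lowest and the BPA liver 977 highest of all 8. In muscle the ratio was 4.35 ± 0.35 in BPA animals and 4.21 ± 0.09 in controls.

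The receptors had estimates of opposite sign in liver. RARB, itself a classical target of retinoic acid, was at 157, 269, 294 and 446 in the BPA livers 910, 918, 977 and 984, and at 264, 125, 144 and 122 in the control livers 902, 908, 924 and 928. The 3 BPA livers other than 910 lay above every control, 918 only narrowly above 902 (129 and 140 reads). Of the controls, 902 stood above the others. The log2 difference was 0.81 (SE 0.39, limma adjusted p = 0.291). It was 1.33 without both 902 and 910 (limma adjusted p = 0.00451), where 6594 of 15296 genes passed. With the depth class as a covariate it was 0.29 (limma adjusted p = 0.556). RARA was at 1028, 625, 704 and 914 in BPA livers and at 588, 1025, 1117 and 893 in controls, in the same order of animals. Its groups overlapped throughout, with a log2 difference of -0.14 (SE 0.31, limma adjusted p = 0.819), and the direction changed with the depth class as a covariate (0.18, adjusted p = 0.700).

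**Figure D2:**
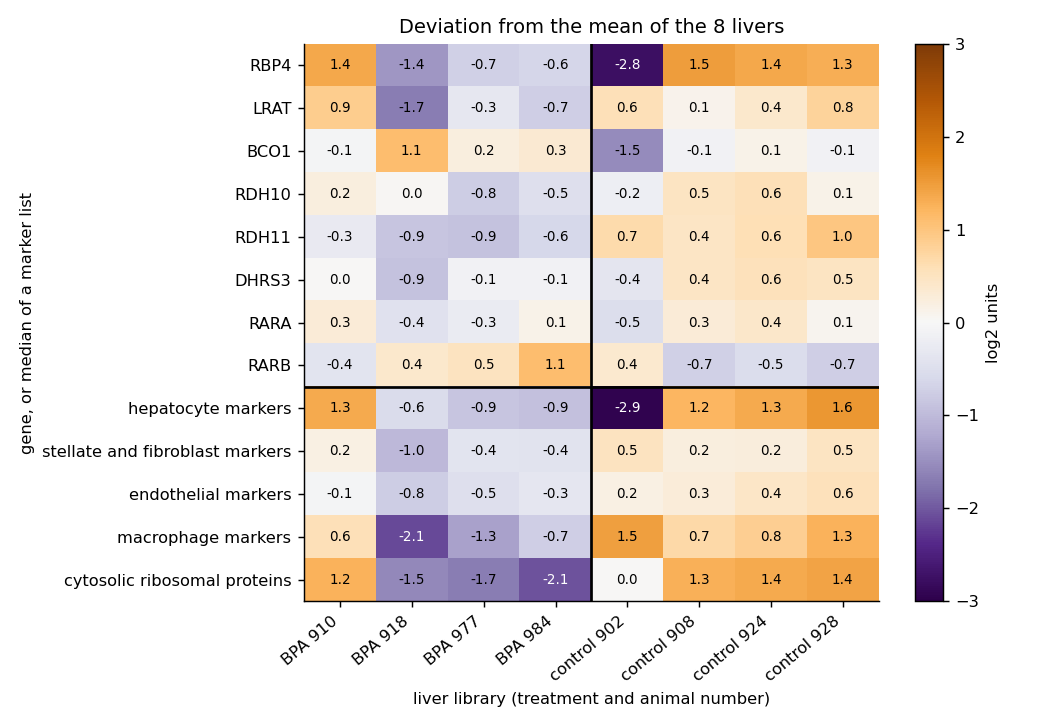
Deviation in log2 units from the mean of the 8 livers, for each of the 8 genes (upper rows) and for the median of 5 marker lists (lower rows), with BPA livers on the left and control livers on the right. RBP4 follows the hepatocyte row, with -2.8 in the control 902 and 1.4 in the BPA liver 910. RDH11, chosen for its low BPA livers, is below 0 in all 4 BPA livers and above 0 in all 4 controls. The endothelial row is split in the same way (-0.76 to -0.06 in BPA livers and 0.19 to 0.56 in controls).

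Of the 7 genes other than RDH11, 0 passed the threshold of an adjusted p of 0.05 in liver, and 0 of all 15689 genes tested passed (0%). The count over all genes was also 0 with edgeR, and 190 with DESeq2, while 2838 had an unadjusted limma p under 0.05 (18.1%). None of the 7 had an unadjusted p under 0.05, and neither edgeR nor DESeq2 called any of them. Groups that did not overlap were seen for RDH11 alone, 1 of 8, against 3.98% of all genes lying lower and 3.63% higher in every BPA liver. RDH11 was chosen for this, so nothing is read from that count. Without both 902 and 910, an alternative chosen after the libraries had been seen, 5 of the 7 passed (RBP4, LRAT, RDH10 and DHRS3 lower, RARB higher), as did 6594 of 15296 genes. The BPA livers left there all had fewer than 15 M reads and the controls all more, so treatment and depth cannot be told apart. Of the 7, 5 had estimates below 0, and the median log2 difference of the 7 was -0.50, beside 50.7% of all genes tested below 0 and a median of -0.01.

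In muscle none of the genes that could be tested passed for BPA against control. RBP4 was at 428 ± 133 in BPA muscle and 439 ± 107 in control muscle (log2 difference -0.05, SE 0.22). RDH10 was at 52.1 ± 14.9 in BPA muscle and 60.0 ± 4.71 in control muscle (-0.24, SE 0.21), and DHRS3 at 1048 ± 47.7 in BPA muscle and 1130 ± 120 in control muscle (-0.10, SE 0.09). Of the receptors, RARA was at 582 ± 64.1 in BPA muscle and 499 ± 65.9 in control muscle (0.22, SE 0.12), and RARB at 150 ± 26.7 in BPA muscle and 152 ± 11.1 in control muscle (-0.03, SE 0.14). All groups overlapped, where those of 4.53% of all genes did not (2.05% higher and 2.48% lower in every BPA muscle). Of these 5 genes 0 passed with limma (adjusted p 0.708 to 0.970, 0 with an unadjusted p under 0.05), and neither edgeR nor DESeq2 called any, while 19 of 14706 genes passed over the whole table (0.129%, of which 0.0136% higher, with 7.77% at an unadjusted p under 0.05). For DHRS3 the 95% interval of the log2 difference was -0.30 to 0.10 in muscle, against -1.32 to 0.20 in liver.

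Within each group, RBP4 in muscle was highest in the animal whose muscle held most hepatocyte transcripts. The BPA muscles 910, 918, 977 and 984 had 603, 344, 309 and 457 RBP4, and the control muscles 902, 908, 924 and 928 had 561, 457, 300 and 438. TTR in the same BPA muscles was at 126, 71.4, 73.0 and 88.4, and in the controls at 161, 106, 79.8 and 108. The 14 hepatocyte markers with a row summed to 5455 to 11152 in BPA muscle and 11150 to 17030 in control muscle, none of them at 0, and all 14 had lower estimates in BPA muscle, 2 of them past the threshold, where 0.116% of all genes were called lower. The median of the 6 adipocyte markers lay at 1.31, -0.31, -1.34 and 0.25 log2 units in the same BPA muscles, the order of RBP4. In the control muscles it lay at 0.07, 0.07, -0.47 and 0.13, highest in 928. Whether liver-type or adipocyte transcripts account for RBP4 in muscle was not tested.

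**Figure D3:**
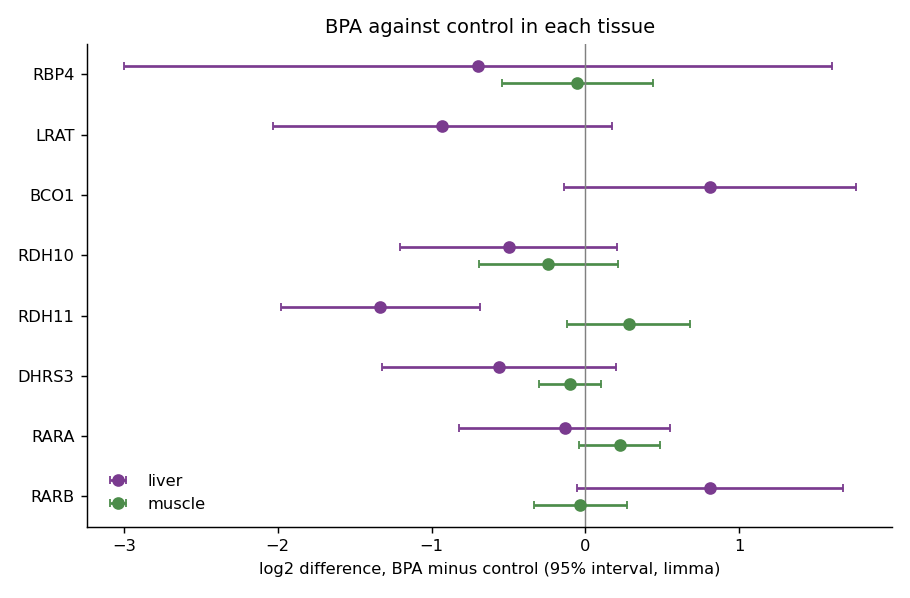
Log2 difference of BPA minus control in liver and in muscle for the 8 genes, with 95% intervals from limma; LRAT and BCO1 had too few reads in muscle to be tested. The intervals of RDH11 are drawn for scale only, since its values chose the set; those of the other genes include 0 in both tissues, and in liver that of RBP4 (-0.70, SE 1.03) is the widest.

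Setting the BPA effect in liver against that in muscle, 5 genes besides RDH11 had enough reads in both. The estimate was -0.65 for RBP4 (SE 1.09), -0.26 for RDH10 (SE 0.36), -0.46 for DHRS3 (SE 0.33), -0.36 for RARA (SE 0.31) and 0.84 for RARB (SE 0.42). Of these 0 passed with limma (adjusted p 0.274 to 0.747), as 0 of 13677 genes did overall (0%), with 2661 at an unadjusted p under 0.05, 0 by edgeR and 148 by DESeq2. None of the 5 had an unadjusted p under 0.05 or was called by edgeR or DESeq2. RARB alone changed sides when 1 animal was left out: without 910 it was 1.22 (adjusted p = 0.0326), where 3020 of 13653 genes passed.

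Between the tissues all 8 genes had higher estimates in liver, and 6 of the 7 other than RDH11 passed, against 36.1% of 15995 genes called higher in liver (71.4% in either direction, 73.5% at an unadjusted p under 0.05). BCO1 spanned 324 to 2040 over the 8 livers, against 3.84 to 9.74 over the 8 muscles, and differed by 7.11 on the log2 scale (SE 0.26, limma adjusted p = 5.32e-13). RBP4 (5.52, SE 0.55), LRAT (4.10, SE 0.38) and RDH10 (95% interval 3.11 to 3.88) followed, with limma adjusted p of 1.48e-07, 7.61e-08 and 5.21e-11. For these 4 genes every liver lay above every muscle, as for 20.4% of all genes tested. The storage, transport, carotenoid and retinol-oxidizing genes thus had the largest differences of the set.

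The other genes differed less between tissues. RARA had a log2 difference of 0.65 (SE 0.16, limma adjusted p = 0.00149) and DHRS3 one of 0.57 (SE 0.16, adjusted p = 0.00538). That of RDH11 was 0.71 (SE 0.16) over all animals and 1.51 in control animals alone, given without a test because the same libraries entered its choice. RARB missed the threshold at 0.46 (SE 0.21, adjusted p = 0.0620). In control animals alone RARB was at 0.03 (adjusted p = 0.916), and its liver exceeded its muscle in 3 of 4 BPA animals and 1 of 4 controls. RARB passed with other scalings and tools (adjusted p 0.0446 with TMM scaling, 0.0244 with edgeR and 0.0285 with DESeq2) and without animal 910 (0.64, adjusted p = 0.00653).

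A wider list of 64 genes of the pathway, written with earlier results of these data known, had 52 rows. In liver 42 besides RDH11 were tested and 0 passed for BPA against control. Of these 42, 14 had estimates above 0 and 28 below (median -0.27, beside -0.01 over all genes). Of those below, DHRS9, STRA6, CRABP1 and RBP2 were tested only through the high values of the control liver 902, given by role below. Groups did not overlap for LIPA, ALDH1A2 and ALDH8A1, 3 of the 42, against 7.61% of all genes. LIPA, the lysosomal acid lipase, was at 477, 106, 67.4 and 129 in the BPA livers 910, 918, 977 and 984, and at 1773, 531, 578 and 791 in the control livers 902, 908, 924 and 928 (log2 difference -2.47, SE 0.61). ALDH1A2, a retinaldehyde dehydrogenase that makes retinoic acid, was at 19.7 ± 7.29 in BPA livers and 102 ± 109 in controls (-1.87, SE 0.63), the control spread being set by 902 (264). ALDH8A1, an aldehyde dehydrogenase studied for retinaldehyde oxidation and for tryptophan breakdown, was at 2997, 3446, 4032 and 5133 in BPA livers and at 1353, 1896, 2063 and 2804 in controls (0.96, SE 0.34). All 3 had a limma adjusted p of 0.256. LPL, lipoprotein lipase, was at 13.7 ± 13.5 in BPA livers and 48.1 ± 32.1 in controls (-2.15, adjusted p = 0.256). TGM2, a transglutaminase induced by retinoic acid, was at 1863 ± 848 in BPA livers and 3208 ± 681 in controls (-0.88, adjusted p = 0.281). PNPLA4, a lipase with retinyl ester activity in humans, was at 181 ± 78.9 in BPA livers and 101 ± 7.32 in controls (0.71, adjusted p = 0.331). ALDH1A1, a form abundant in liver, was at 2960 ± 2276 in BPA livers and 5808 ± 3332 in controls and split like RBP4, with 6355 in the BPA liver 910.

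**Figure D4:**
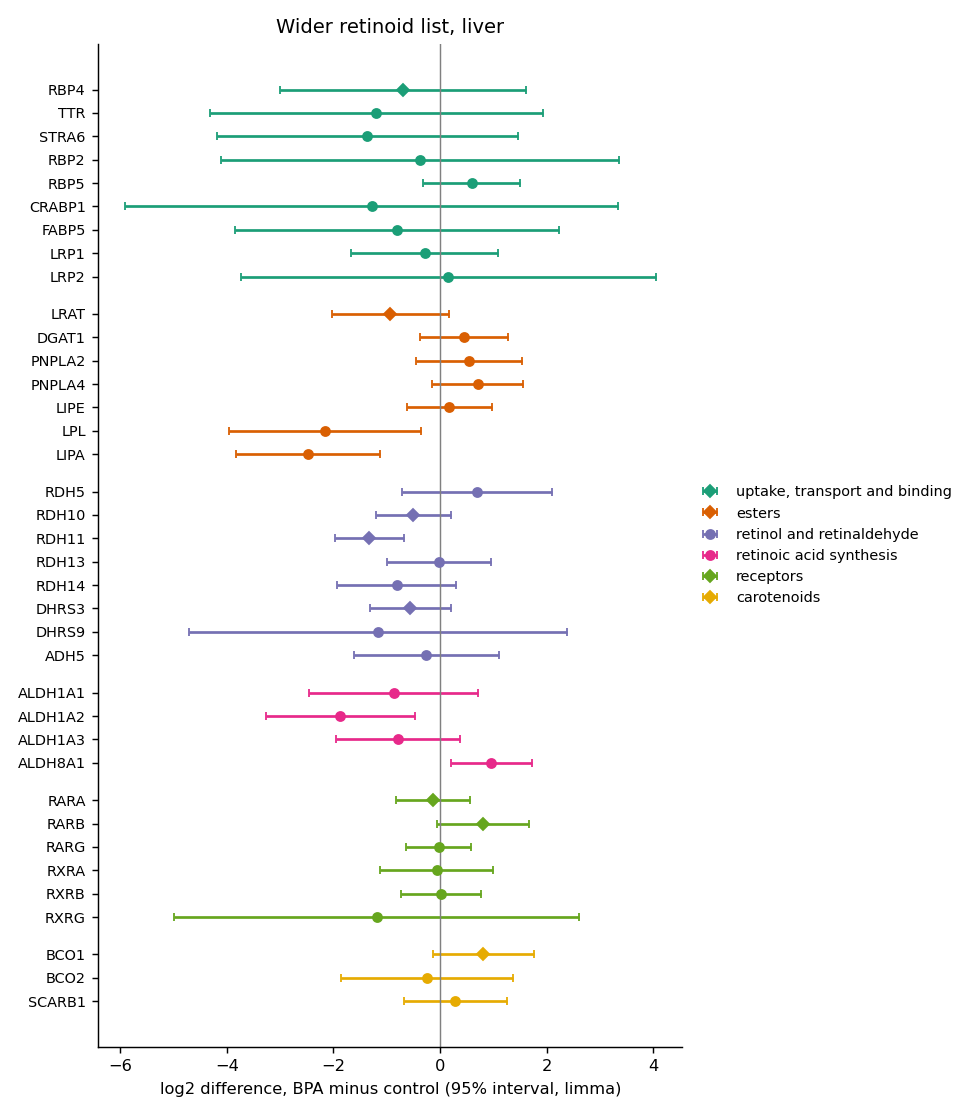
Log2 difference of BPA minus control in liver (95% intervals, limma) for the tested genes of the wider list, coloured by role (genes listed only as known targets are among those not drawn), with diamonds for the genes of the set. RDH11 is drawn for scale only, since its values chose the set. None of the other genes passed after adjustment. LIPA (-2.47) and ALDH1A2 (-1.87) are low and ALDH8A1 (0.96) is high, and the widest interval is that of CRABP1.

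By role, retinol and retinaldehyde enzymes other than RDH11 had lower estimates in BPA livers in 6 of 7 tested (median -0.50), where 50.7% of all genes did, and binding and transport genes in 8 of 10 (-0.64). Of those lower, DHRS9, STRA6, CRABP1 and RBP2 reached the mean of 10 only through the control liver 902 (1006, 192, 1195 and 682). The other livers held 3.44 to 15.1, 1.53 to 5.04, 0 to 15.1 and 0 to 16.2. FABP5 was also far higher in 902 (1108, against 6.40 to 34.4). The lower estimates of these genes rest on 1 library, and STRA6 is counted again among the known targets below. Retinoic acid synthesis genes were lower in 3 of 4 (-0.83), and ester enzymes in 3 of 7 (0.17). Receptors were lower in 4 of 6 (-0.05): RARG was at 259 ± 49.8 in BPA livers and 264 ± 47.3 in controls, RXRA at 5513 ± 2278 in BPA livers and 5455 ± 1531 in controls, and RXRB at 461 ± 163 in BPA livers and 436 ± 68.5 in controls. Known retinoic acid targets were lower in 6 of 9 (-0.44), so the estimate of RARB (0.81) had the opposite sign to most of that list. In muscle 36 genes of the wider list other than RDH11 were tested and 0 passed (20 estimates above 0 and 16 below). None of them had groups that did not overlap, against 4.53% of all genes. The nearest by p there was FABP5, at 1075 ± 176 in BPA muscle and 776 ± 225 in control muscle (0.51, SE 0.20, limma adjusted p = 0.563).

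Between tissues, 30 of the 43 wider-list genes other than RDH11 passed. Of these, liver was the higher tissue for 22 and muscle for 8, against 36.1% and 35.3% of all genes. Higher in liver with the members were RBP5 (7.31), which binds retinol in cells, ALDH8A1 (7.18), the carotenoid oxygenase BCO2 (4.99) and the scavenger receptor SCARB1 (3.66). Higher in muscle were the retinyl ester hydrolases LIPE (-4.86) and LPL (-4.83), the retinoic acid carriers FABP5 (-4.99) and CRABP2 (-3.12), and the receptor RXRG (-3.79). Also higher in liver were TTR (5.76), RARRES2 (4.16), LRP1 (2.61), ALDH1A2 (2.51), RBP2 (2.46), LIPA (2.04), ALDH1A1 (1.59), DGAT1 (0.98), TGM2 (0.85), ADH5 (0.83) and PNPLA4 (0.70), and also higher in muscle HIC1 (-1.26) and RDH14 (-1.17). RBP2, counted among the 22, reached the mean needed for the test only through the control liver 902 (682). It was at 0 to 16.2 in the other livers and at 0 to 4.21 in the 8 muscles. RXRG was at 0 to 337 in the 8 livers and 277 to 787 in the 8 muscles. Of the receptors, RARA was the one that passed as higher in liver, and RXRB and RXRG passed as higher in muscle. RARG (-0.0044, SE 0.14) and RXRA (0.05, SE 0.23) did not pass.

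**Figure D5:**
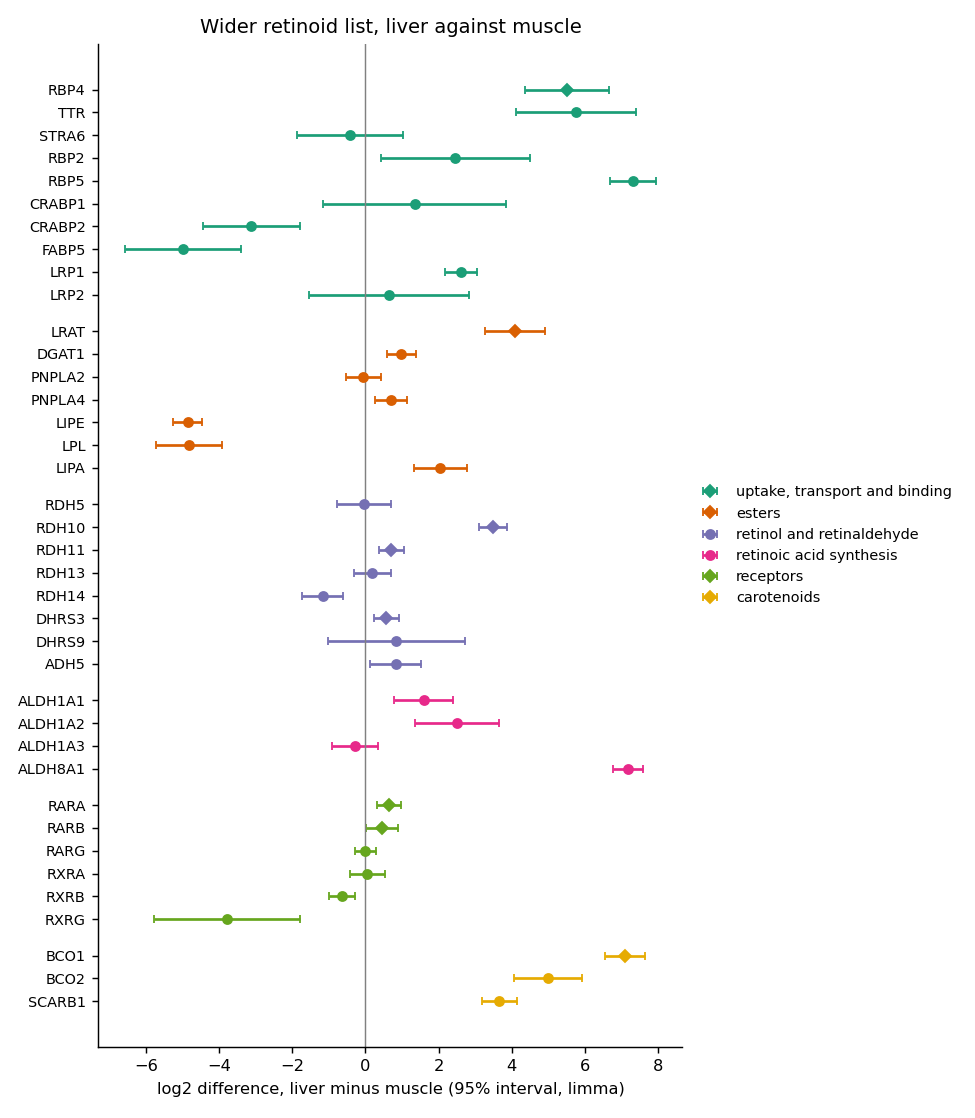
Log2 difference of liver minus muscle (95% intervals, limma, 16 libraries) for the tested genes of the wider list, coloured by role (genes listed only as known targets are among those not drawn), with diamonds for the genes of the set. Carotenoid genes lie to the right (3.66 to 7.11), and the receptors range from -3.79 (RXRG) to 0.65 (RARA).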

How the data were processed

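Per the labels' protocols, total RNA from each tissue sample was cleared of ribosomal RNA before low-input library preparation. The submitters' processing notes name Trimmomatic, FastQC and DESeq2 1.24.0, with aligner, counter, annotation, build and strandedness not given in the sources used here. RBP4, RDH10, RARA and RARB overlap another gene in the RefSeq table of assembly ARS-UI_Ramb_v3.0 (names only), so reads of the partner cannot be told apart. The deposited signal is a normalized read count, which the authors divided by a constant for each library, as the values show. Whole reads were recovered from these constants (within 0.1 read for at least 99.9965% of values).

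limma 3.58.1 (R 4.3.3) was fitted to log2(value + 1) in each tissue alone (mean of at least 10) and in a 4-group fit over both tissues (mean of at least 10 over all libraries, or in each tissue for the difference of BPA effects), with an intensity trend and Benjamini-Hochberg adjusted p-values across the genes entering each fit. Log2 differences use the stated pseudocount and so understate changes of low genes. edgeR 4.0.16 and DESeq2 1.42.0 were run on the whole reads. The code was tested on simulated counts. Animals pair liver and muscle by the labels (correlation of an animal's deviations across tissues -0.10 to 0.12). Members and lists were chosen with earlier results of these data known. Named beside the set were genes of the wider list past the threshold or with the 3 smallest p per role, and the 5 genes most correlated with RDH11, apart from a few that are not reported here. Marker medians are log2 deviations from the tissue mean.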

Additional observations from a re-analysis of the deposited data

Results flagged for a closer look

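Within each group of 4 libraries, 1 library lay far from the other 3 in 28 of the 160 groups examined. The groups covered the 8 genes and other genes of the wider list. Chance gives about 1 in 20 for independent, normally distributed values. The values here were counts without a log scale, of genes that share libraries, so that rate is only a rough guide. Of the 28, 17 were the control liver 902. In 902 RBP4 (2847, others 47217 to 54060), TTR (358, others 20911 to 25115), DHRS3 (1261, others 2197 to 2368), RBP5 (562, others 1433 to 1605), BCO2 (262), SCARB1 (673) and RXRA (3166) were low.

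Other retinoid genes were high in the same liver. RARRES1, a retinoic acid-induced gene, was at 11715 against 9.95 to 17.2 in the other controls, CRABP1 at 1195, LRP2 at 1195, FABP5 at 1108, DHRS9 at 1006, RBP2 at 682, STRA6, a membrane receptor for RBP4, at 192, LPL at 96.1, and ALDH1A2 and RARB at 264 each. STRA6 was at 2.68 to 3.55 and CRABP1 at 0 to 2.01 in the other control livers.

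In BPA livers, 910 was far above the others for RBP4 (50013), TTR (21391), ALDH1A1 (6355) and LIPA (477). CRABP1 (15.1) and FABP5 (34.4) were high in 984 and SCARB1 (1516) low in 918. RXRA was low in the BPA muscle 910 (4324). In control muscle, LRAT (9.81, 12 reads) and RARB (168) were high in 928, and ALDH1A3 (106) in 924.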

How the results depend on the processing

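Of 428 values of single genes under alternative settings, 409 were counted as unchanged, 11 passed newly and 8 changed direction. Unchanged meant the same direction and side of the threshold, or the same direction alone where no adjusted p was given. For RDH11 in the BPA comparisons it meant the same direction and a shift smaller than its within-group SD. RBP4 (0.91) and RARA (0.18) in liver changed direction with the depth class as a covariate, added after seeing the data. RBP4 and RARB in muscle did so when 1 animal was left out (-0.23 to 0.089 and -0.14 to 0.033). RDH11 in liver ranged from -1.47 to -1.20. Genes called in liver (main 0) were 190 with DESeq2, 0 to 2595 when 1 animal was left out and 6594 without 902 and 910. In muscle (19, 2 higher and 17 lower) they were 131 with DESeq2 (42 higher, 89 lower) and 11 to 31 when 1 animal was left out. For the difference between BPA effects (0) they were 148 with DESeq2 and 0 to 3020 when 1 animal was left out, the highest without 910. The cause was not tested. With the animal as a replicate block, 11374 genes passed between tissues (11420 without) and 0 for the difference, and no call of the 7 genes other than RDH11 changed. Between tissues the median over all genes was 0.06, and 0.21 with edgeR and 0.15 with DESeq2. Few reads limit LRAT and BCO1 in muscle (1 to 12 and 5 to 8 reads) and RDH11 in BPA livers (20 to 82 reads).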
